A study of Rattus norvegicus with 24 samples.

Results

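Of 24 libraries of P14 rat nucleus accumbens (NAc), the 6 richest and the 6 poorest in thalamic transcripts are described here. Each library was scored by its mean log2(FPKM + 0.1) over 4 genes of thalamic neurons, Tcf7l2, Lhx9, Prkcd and Slc17a6. FPKM is a level scaled for the length of the gene and the size of the library. The 6 highest scores made the thalamus-rich set and the 6 lowest the thalamus-poor set. The remaining 12 libraries, with middle scores, fall in neither set. As the sets were chosen on measured values, every difference between them is given as a description without a test, and tests were made on the 12 middle libraries and on the study's own groups.

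The study sequenced 4 Sprague Dawley pups in each of 6 groups at postnatal day 14, to compare early-life oxycodone (oxy) exposure over a pair of generations. F1 IUO pups were exposed in utero through F0 dams gavaged with rising oral doses of oxy, ending at 15 mg/kg/day, from before mating until weaning. F1 PNO pups were exposed through the milk of F0 dams that received 15 mg/kg/day from birth until weaning, and F1 SAL pups were the saline controls. F2 IUO, PNO and SAL pups were born to F1 females of those lines that were themselves never dosed directly, and males new to the experiment. In all groups the NAc was cut from the brain with a matrix, as a tissue piece and not as sorted cells. Male or female pups were taken at random, with no sex given for a pup, and the labels do not say which pups shared a litter.

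The NAc is the ventral part of the striatum. Nearly all of its neurons are inhibitory projection neurons, of a kind that carries the dopamine receptor Drd1 and makes dynorphin and substance P, and a kind that carries Drd2 and makes enkephalin. Thalamic nuclei instead hold mostly excitatory relay neurons that load glutamate with the vesicular transporter Slc17a6 and send axons to cortex and striatum. Tcf7l2 is a nuclear partner of beta-catenin in canonical Wnt signalling and is kept on in postnatal thalamic and habenular neurons. Lhx9 is a homeodomain factor of the thalamus, and Prkcd is a protein kinase C of sensory relay neurons.

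The score ran from 5.49 in F1 PNO 2, the second F1 PNO library, to 0.91 in F2 SAL 2. The thalamus-rich set held F1 PNO 2 (5.49), F1 PNO 4 (4.98), F2 SAL 3 (4.72), F2 PNO 3 (4.66), F1 SAL 1 (4.57) and F2 IUO 1 (4.49). The thalamus-poor set held F2 SAL 1 (1.83), F1 SAL 3 (1.49), F1 SAL 4 (1.25), F2 IUO 4 (1.22), F1 IUO 1 (1.21) and F2 SAL 2 (0.91). Just outside the rich set stood F1 IUO 4 at 4.43, which is close to the last member inside at 4.49. Just outside the poor set stood F1 IUO 2 at 2.09. Each set had 3 F1 and 3 F2 libraries. By treatment, 3 of the 8 PNO libraries were rich and 0 were poor, 2 of the 8 SAL libraries were rich and 4 were poor, and 1 of the 8 IUO libraries was rich and 2 were poor. Leaving any 1 of the 4 genes out of the score returned the same 12 libraries, except that 5 of the 6 rich libraries were returned without Lhx9.

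Tcf7l2 (ENSRNOG00000049232) was at 91.9 ± 26.9 FPKM (SD, n = 6) in the rich and 9.61 ± 3.54 FPKM (SD, n = 6) in the poor libraries. Slc17a6 was at 52.3 FPKM in the mean of the rich and 5.98 FPKM in the mean of the poor libraries. Prkcd was at 30.0 and 5.05 FPKM, and Lhx9 at 5.12 and 0.07 FPKM, in the same order. Lhx9 was listed at 0 in 3 of the 6 poor libraries. These 4 genes chose the sets and are left out of the counts for the sets, the marker lists and the middle libraries.

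**Figure D1:**
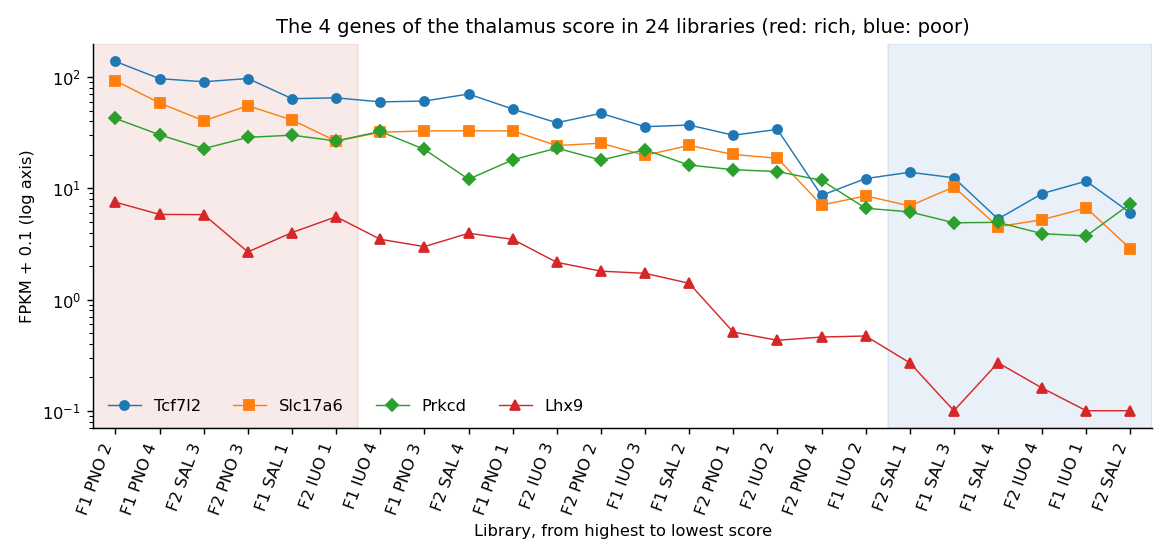
Level of the 4 score genes (FPKM + 0.1, log axis) in each of the 24 libraries, ordered from the highest to the lowest score, with the rich set on a red and the poor set on a blue ground. Tcf7l2 ran from 138 FPKM in F1 PNO 2 to 5.91 FPKM in F2 SAL 2, with no gap between the rich set and the libraries next to it.

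FPKM summed to between 594928 and 673537 in the rich and between 607868 and 709207 in the poor libraries. All genes with a symbol starting with Mt-, the mitochondrially encoded ones, held 25.7 to 39.2% and 30.9 to 39.0% of that sum. Genes listed at 0 numbered 4939 to 6076 in the rich and 5149 to 7532 in the poor libraries, where F2 IUO 4 (7532) and F1 IUO 1 (7176) had the most, and their part in the differences was not tested. As the depth of a library is unknown, counting error cannot be stated, and a value of 0 is only listed at 0. Striatal projection neurons define the labelled tissue, and their genes Ppp1r1b and Penk were present in all 24 libraries. Ido1, also on the list of their genes below, was listed at 0 in 3 rich, 6 middle and 5 poor libraries. Ppp1r1b, which encodes the dopamine-regulated phosphatase inhibitor DARPP-32, ran from 167 to 549 FPKM, and the enkephalin precursor Penk from 81.5 to 326 FPKM. In bulk tissue, fewer cells of a type and less RNA per cell cannot be told apart, and this holds for every level below.

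Of 17169 genes with at least 0.1 FPKM in 6 or more of the 12 rich and poor libraries, 322 (1.88%) were higher in all 6 rich than in all 6 poor libraries. A further 77 (0.448%) were lower in all 6 rich than in all 6 poor libraries. The filter lets a gene pass on the levels of 1 set alone. With 1 library left out, these counts ran from 341 to 487 higher and from 84 to 204 lower, since fewer libraries overlap more rarely. The lower count moved most without F2 IUO 4 (204), F2 IUO 1 (192), F2 SAL 3 (168) and F1 IUO 1 (149), and the higher count without F2 IUO 1 (487).

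Markers of thalamic neurons outside the score were higher in the rich libraries. Of the 22 genes on this list, all of which passed the filter, 21 had the higher mean in the rich set and 14 did not overlap between the sets, against 1.88% of all genes. The median difference over the list was 1.72 on the log2 scale, against 0.04 over all genes. The list covers transcription factors, axon and synapse proteins, receptors and a calcium channel, and is described in that order.

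Shox2 (ENSRNOG00000012478), a homeobox factor of developing thalamic neurons, spanned the widest range. It had a lowest, median and highest value of 4.49, 9.04 and 15.9 FPKM in the rich libraries, and of 0, 0.025 and 0.34 FPKM in the poor libraries, where it was listed at 0 in 3 of 6. The means differed by 5.76 on the log2(FPKM + 0.1) scale. Gbx2, a homeobox factor needed for thalamic differentiation, was at 4.42, 6.15 and 9.38 FPKM in the rich and 0.11, 0.96 and 1.29 FPKM in the poor libraries. Lef1, another nuclear partner of beta-catenin, was at 7.23, 11.2 and 16.2 FPKM against 2.36, 2.64 and 2.82 FPKM. In each of these 3 genes the lowest rich library stood above the highest poor one. Prox1, a homeobox factor, also did not overlap (5.42 FPKM in the mean of the rich, 1.09 in the mean of the poor libraries). The transcription factors Foxp2, Lhx2, Rora and Zfhx3 overlapped. Foxp2, which striatal neurons also express, had nearly the same mean in both sets, 9.12 FPKM in the rich and 8.75 FPKM in the poor libraries.

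Ntng1 (ENSRNOG00000031136), netrin-G1, sits on thalamocortical axons. Its lowest, median and highest values were 10.99, 19.4 and 30.7 FPKM in the rich and 2.87, 3.18 and 3.91 FPKM in the poor libraries, a log2 difference of 2.49 in the means. The 6 poor libraries lay close together for this gene, with an SD of 0.17 on the log2 scale, and the rich ones were spread, with an SD of 0.49. Slitrk6, a synaptic adhesion protein, was at 3.66 FPKM in the mean of the rich and 0.79 FPKM in the mean of the poor libraries. Synpo2, an actin-binding protein, was at 6.02 against 0.46 FPKM, and Ptpn3, a tyrosine phosphatase, at 7.28 against 0.62 FPKM. None of these 4 genes overlapped between the sets.

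Among receptors and signalling proteins, Rgs16, a regulator of G-protein signalling, had a lowest, median and highest level of 9.78, 16.3 and 24.7 FPKM in the rich and 2.60, 3.05 and 3.54 FPKM in the poor libraries. Ramp3, a receptor accessory protein, was at 24.1 FPKM in the mean of the rich and 7.14 FPKM in the mean of the poor libraries. The prostaglandin receptor Ptger3 was at 3.07 against 0.58 FPKM. The ligand Wnt3 was at 1.55 against 0.48 FPKM, and Plekhg1 at 4.75 against 1.49 FPKM. Cacna1g, which encodes the T-type calcium channel behind burst firing of relay neurons, differed less, at 19.2 against 12.5 FPKM, though without overlap. Adarb1, Amotl1, Calb2 and Tnnt1 overlapped, and the mean of Tnnt1 was lower in the rich libraries (4.00 against 6.01 FPKM), the one member with that direction.

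Of 20 canonical Wnt pathway genes kept, 3 were higher in the rich libraries without overlap, against 1.88% of all genes, namely Wnt3, Lef1 and the inhibitor Nkd1, and the median difference over the list was 0.10. Axin2, a widely used readout of the pathway, was at 8.59 FPKM in the mean of the rich and 8.09 FPKM in the mean of the poor libraries, and beta-catenin itself, Ctnnb1, at 114 against 107 FPKM. Of 17 genes for channels, receptors and signalling enzymes of relay neurons, Cacna1g alone did not overlap, against 1.88% of all genes, and the median difference was 0.43. Plcb4, a phospholipase C of thalamic relay neurons, had the largest difference on that list (1.19) and overlapped, with 5.42 to 18.7 FPKM in the rich and 2.99 to 7.73 FPKM in the poor libraries. The pacemaker channel Hcn4 ran from 5.26 to 10.1 FPKM and from 4.04 to 6.80 FPKM in the same order.

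The habenula borders the thalamus and shares Tcf7l2 with it. Of its 6 markers, 4 passed the filter, all 4 had the higher mean in the rich set, and 1 did not overlap, against 1.88% of all genes. That gene was Chrna3, a nicotinic receptor subunit, with a lowest, median and highest level of 2.50, 4.20 and 9.32 FPKM in the rich and 1.07, 1.49 and 2.43 FPKM in the poor libraries. The highest values, 9.32 and 7.96 FPKM, were those of F1 PNO 2 and F1 PNO 4. Pou4f1, the factor that defines habenular neurons, did not pass the filter and ran from 0 to 0.96 FPKM in the rich and from 0 to 0.07 FPKM in the poor libraries.

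**Figure D2:**
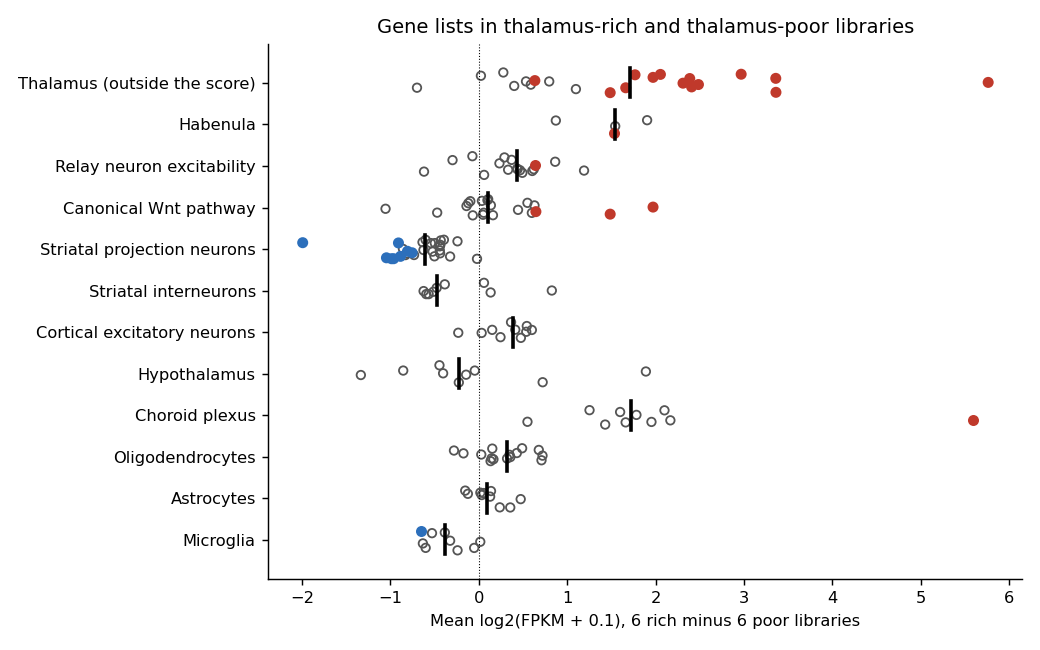
Difference between the means of the 6 rich and 6 poor libraries on the log2(FPKM + 0.1) scale, one point per gene, with a bar at each list's median. Filled points are genes whose 6 and 6 values do not overlap, red where higher and blue where lower in the rich libraries. The thalamus list centres on 1.72 and the striatal projection neuron list on -0.61.

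Genes of striatal projection neurons were lower in the rich libraries, by less than the thalamic genes were higher. Of 29 genes on this list 28 passed the filter, all 28 had the lower mean in the rich set, and 8 did not overlap, against 0.448% of all genes. The median difference was -0.61 on the log2 scale, and the range was from -1.99 to -0.02.

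Markers of neurons that carry Drd2 made up 4 of these 8 genes. Drd2 itself had a lowest, median and highest level of 15.8, 23.8 and 31.4 FPKM in the rich and 40.0, 46.1 and 69.2 FPKM in the poor libraries. The adenosine receptor Adora2a was at 26.6, 40.0 and 53.6 FPKM in the rich against 57.8, 67.2 and 101 FPKM in the poor libraries. Penk was at 81.5, 155 and 202 FPKM against 231, 251 and 322 FPKM. Each of these 3 genes was lower in every rich than in every poor library, and so was Gpr6, an orphan receptor of the same neurons (11.1 FPKM in the mean of the rich, 19.5 in the mean of the poor).

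Of the markers of neurons that carry Drd1, Pdyn alone separated the sets. This dynorphin precursor was at 20.4, 26.5 and 36.4 FPKM in the rich and 44.4, 53.6 and 61.0 FPKM in the poor libraries. Drd1 overlapped, from 6.87 to 18.5 FPKM in the rich and from 13.3 to 23.6 FPKM in the poor libraries, as did the substance P precursor Tac1, from 27.7 to 71.9 FPKM and from 59.0 to 93.5 FPKM. The log2 differences were -1.04 for Drd2, -0.91 for Adora2a and -0.88 for Penk, against -0.44 for Drd1, -0.64 for Tac1 and -0.96 for Pdyn. Whether the pair of neuron kinds differed in this was not tested.

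Genes shared by both kinds of projection neuron were lower in mean as well. Ppp1r1b was at 265 FPKM in the mean of the rich and 458 FPKM in the mean of the poor libraries and overlapped through F2 SAL 3, at 400 FPKM. The retinoid receptor Rxrg was at 12.05, 16.4 and 23.9 FPKM against 27.1, 32.4 and 54.4 FPKM, and the homeobox factor Meis2 was at 49.3 FPKM in the mean of the rich against 83.2 FPKM in the mean of the poor libraries, both without overlap. Bcl11b, a zinc-finger factor of projection neurons, had the largest difference, -1.99, but its values fell apart within the poor set, with 26.02 FPKM in F1 SAL 4, 12.1 FPKM in F2 IUO 4 and 1.33 to 2.38 FPKM in the other 4. How reads of this locus were shared among transcripts was not tested, which limits what its values show. Among the middle libraries Bcl11b ran from 0.05 to 28.45 FPKM. Striatal interneuron genes overlapped in all 9 cases, with a median difference of -0.48. On the log2 scale 3 of them had the higher and 6 the lower mean in the rich set. Pvalb, a marker of fast-spiking interneurons that other brain regions also express, had the higher mean FPKM in the rich set (21.2 against 13.0 FPKM).

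Over all genes, the 15 with the largest positive differences among those without overlap, with a mean of at least 1 FPKM in the higher set, began with Shox2 and with Ttr, treated with the choroid plexus below. Cpne9, a copine that binds membranes in the presence of calcium, was at 16.6, 21.98 and 36.02 FPKM in the rich and 1.64, 2.02 and 3.26 FPKM in the poor libraries, an 11.1-fold ratio of the means. Smpx ran from 1.20 to 2.39 FPKM in the rich and was listed at 0 in all 6 poor libraries, so no ratio is given. The ephrin receptor Epha1 was at 1.64 FPKM in the mean of the rich and 0.08 FPKM in the mean of the poor libraries. The small GTPase Rab37 was at 1.17 against 0.03 FPKM, the bHLH factor Nhlh2 at 1.92 against 0.18 FPKM, and the zinc-finger factor Zic4 at 9.09 against 1.81 FPKM. Hsd11b2, which inactivates corticosterone, was at 1.88 against 0.21 FPKM. Dhrs7c, Ppm1j and Epn3 completed the 15 beside Ptpn3, Synpo2 and Gbx2 above, with log2 differences of 3.57, 2.77 and 2.49.

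On the lower side, the largest differences after Bcl11b were those of Crabp1 and Crip3. Crabp1, a retinoic acid binding protein, was at 16.2, 20.6 and 31.5 FPKM in the rich and 39.4, 54.4 and 62.8 FPKM in the poor libraries. Asb2 was at 4.02 FPKM in the mean of the rich and 8.96 FPKM in the mean of the poor libraries, the potassium channel subunit Kcne5 at 22.3 against 41.1 FPKM, and the homeobox factor Pbx3 at 17.7 against 30.5 FPKM. Phyhip was at 5.56, 46.2 and 58.8 FPKM in the rich and 62.2, 69.9 and 83.9 FPKM in the poor libraries. With 1 rich library at 5.56 FPKM, its SD on the log2 scale was 1.29 in the rich and 0.16 in the poor set. The microglial receptor Gpr84 and Rps4y2 also did not overlap, at log2 differences of -0.81 and -0.97.

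Across all 24 libraries, Ntng1 had the closest relation to the score, with r = 0.98 (rho = 0.95, and r = 0.97 without the 2 libraries farthest from the median score). Shox2, Rgs16, Lef1 and Cpne9 followed at r = 0.95, and Ccdc136, Synpo2, Zmat4, the metabotropic glutamate receptor Grm2 and the cell-cycle inhibitor Cdkn1a were between r = 0.92 and r = 0.94. The lowest r were those of Ets2 (-0.85) and Crabp1 (-0.84), and the calcium sensor Hpca and the kinase Itpka were both at -0.81. Ets2 differed little in size, 12.2 FPKM in the mean of the rich and 15.7 FPKM in the mean of the poor libraries, but its SD was 0.09 on the log2 scale in each set. These correlations include the libraries on which the sets were chosen and share each library's scaling, and they are descriptions without a p.

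**Figure D3:**
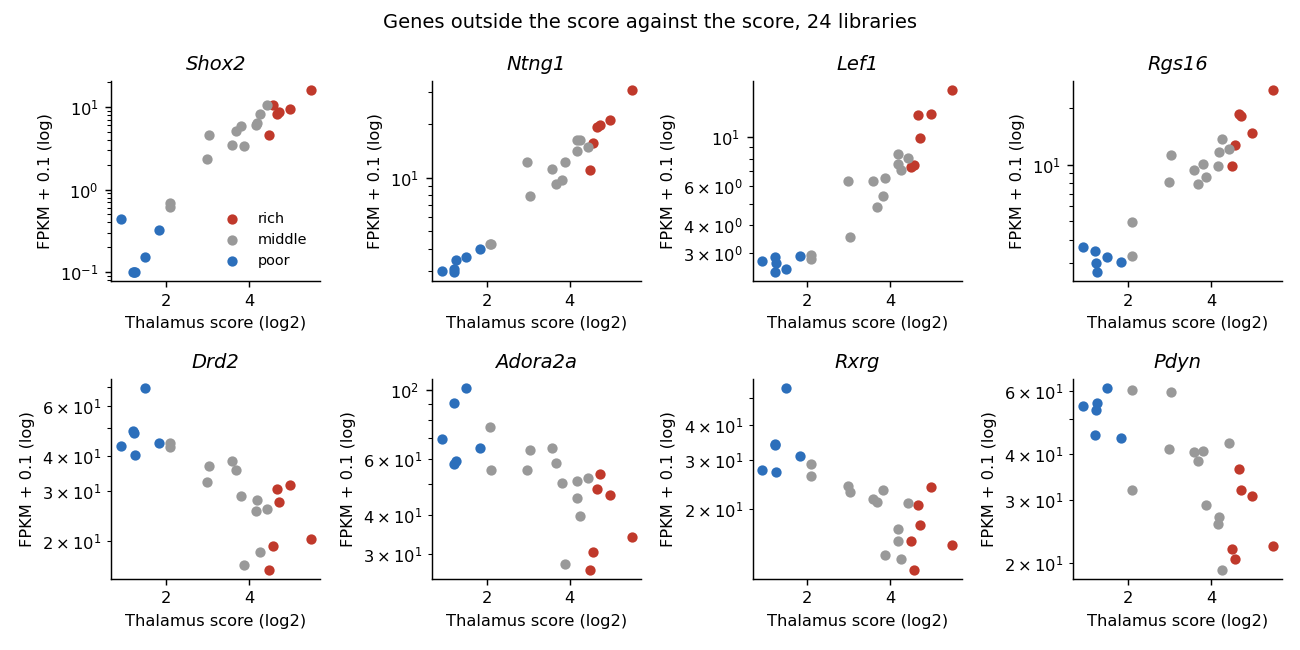
Level (FPKM + 0.1, log axis) of 4 thalamic and 4 striatal genes outside the score against the score of each of the 24 libraries, with rich libraries in red, middle in grey and poor in blue. Shox2, Ntng1, Lef1 and Rgs16 increase with the score through the middle libraries, and Drd2, Adora2a, Rxrg and Pdyn decrease with more scatter.

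Genes of other tissues near the NAc were looked at in the same way. The 10 choroid plexus genes all had the higher mean in the rich set, with a median difference of 1.72. Of the 10, Ttr, the thyroid hormone carrier made by this epithelium, alone did not overlap, against 1.88% of all genes. The size of both rested on F2 IUO 1 and F1 SAL 1, where Ttr stood at 12103 and 5121 FPKM. The other 4 rich libraries, at 8.85 to 77.3 FPKM, also lay above all poor ones, at 1.75 to 8.01 FPKM. The 10 genes together summed to between 12.95 and 12306 FPKM in the rich and between 6.19 and 17.1 FPKM in the poor libraries. With the 4 other rich libraries alone, the choroid plexus median was 0.10, the thalamus median 1.86 and the striatum median -0.44, a choice made once the data had been seen. The counts without overlap were then 540 higher and 216 lower. The part of choroid plexus in the other differences was not tested beyond this.

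All 10 genes of cortical excitatory neurons overlapped, and their median difference was 0.39, which turned to -0.24 without F1 SAL 3. In that poor library Slc17a7, the vesicular glutamate transporter of cortex, was at 3.94 FPKM, against 144 to 271 FPKM in the other 5 poor libraries. All 9 hypothalamic genes kept overlapped, with a median of -0.22, and so did the 15 oligodendrocyte genes (median 0.32), the 10 astrocyte genes (0.09), 5 vascular genes (0.13) and 4 blood genes (-0.84). Of 9 microglial genes the complement gene C1qb was lower in the rich libraries without overlap (35.8 against 56.4 FPKM in the means), against 0.448% of all genes, and the median was -0.38. The study took a further list of genes to RT-PCR, and those looked at here leave out some, among them Tcf7l2 and Hcrtr2. The paper reports Tcf7l2 as significant by RT-PCR in F1, but it is a gene of the score and chose the sets. Among those looked at, Nptx2 and Cdh1 were higher without overlap (2 of 13 identifiers, against 1.88% of all genes). Pdyn was lower without overlap (1 of 13, against 0.448%), and the other identifiers looked at overlapped. Of 8 opioid receptor and peptide genes, Penk and Pdyn were the 2 that did not overlap, both lower in the rich libraries, against 0.448% of all genes. The mu receptor Oprm1, the main target of oxy, was at 0.165 FPKM in the mean of the rich and 0.167 FPKM in the mean of the poor libraries. Both values lie near the filter limit of 0.1 FPKM, and 1 poor library was listed at 0, which limits what they show. Of 4 genes of GABAergic thalamic and midbrain lineages, 2 passed the filter and both overlapped, as did both Y-linked genes kept. The mean log2 level of the Y-linked genes looked at was 1.10 to 1.60 in the F1 SAL and -3.32 to -1.17 in the F2 SAL libraries. Sex was thus not balanced over the study's groups, and its part in any difference was not tested. Of 9 mitochondrially encoded genes looked at, Mt-nd1 alone was lower in the rich libraries without overlap, against 0.448% of all genes, by a log2 difference of -0.31.

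In the 12 libraries that fell in neither set, a test was made, as their levels entered no difference between the sets. The rule had scored and ranked these libraries too, which narrowed the range of the score used in the fit. Their scores ran from 2.09 to 4.43. Of 17235 genes fitted with limma on log2(FPKM + 0.1) against the score, 3 (0.0174%) rose with it at a Benjamini-Hochberg adjusted p under 0.05, adjusted over these genes, which leave out the 4 of the score, and 0 fell. Without adjustment, 386 genes (2.24%) were under 0.05 and higher with the score, and 207 (1.2%) were under 0.05 and lower. The 3 genes were Shox2, Ntng1 and Cpne7. The middle set held 5 IUO, 5 PNO and 2 SAL libraries, and with treatment and generation as factors 0 genes had an adjusted p under 0.05, as with same-numbered libraries as a replicate block.

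Shox2 ran from 0.52 to 10.6 FPKM in the middle libraries, with a median of 4.72 FPKM. It rose by 1.52 log2 units per unit of score (SE 0.165, adjusted p = 0.00606, limma, n = 12). Ntng1, from 4.14 to 16.2 FPKM, rose by 0.77 per unit (SE 0.102, adjusted p = 0.0309, limma). Cpne7 (ENSRNOG00000015397), another copine and on none of the lists, ran from 16.1 to 33.2 FPKM and rose by 0.43 per unit (SE 0.0605, adjusted p = 0.0410, limma). It had lain between 32.7 and 50.0 FPKM in the rich and between 9.99 and 21.8 FPKM in the poor libraries. The lowest Shox2 and Ntng1 values were those of F2 PNO 4 and F1 IUO 2, which also had the lowest scores. Without both, in an alternative chosen after seeing the data, 0 genes had an adjusted p under 0.05, and the slopes were 1.05 for Shox2, 0.52 for Ntng1 and 0.44 for Cpne7. Leaving out 1 library, the count was 0 without F2 PNO 4 or without F1 IUO 2, and 1 without F1 IUO 4, F1 PNO 3, F2 SAL 4 or F1 SAL 2.

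Of the 22 thalamic genes, 2 rose with the score in these libraries, Shox2 and Ntng1. Of the remaining 20, 11 were under 0.05 without adjustment, so that 13 of the 22 were below that level and higher, against 2.24% of all genes. The slope was above 0 for 21 of 22, against 9983 of all 17235 genes. Its median was 0.39 per unit, against 0.023 over all genes. Among those that missed the adjusted threshold, Lef1 had a slope of 0.62 (adjusted p = 0.153, limma) and Rgs16 a slope of 0.62 (adjusted p = 0.352, limma). Gbx2 had a slope of 1.33 (SE 0.327, adjusted p = 0.726, limma) and Synpo2 one of 0.88 (SE 0.189, adjusted p = 0.481, limma).

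None of the 28 striatal projection neuron genes tested fell with the score at the adjusted threshold, and 7 of them, against 1.2% of all genes, were under 0.05 without adjustment and lower. These were Drd2, Rxrg, Actn2, Gpr6, Adora2a, Foxp1 and Pdyn. Drd2 had a slope of -0.41 (SE 0.111, adjusted p = 0.906, limma) and Rxrg one of -0.35 (SE 0.093, adjusted p = 0.906, limma). The slope was below 0 for 26 of the 28 genes, against 7252 of all 17235 genes, with a median of -0.18 per unit. Isl1 and Bcl11b had slopes above 0.

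Other lists held 0 genes past the adjusted threshold in the middle libraries. In the Wnt list, Wnt3, Lef1 and Nkd1, 3 of 20 genes, were under 0.05 without adjustment and higher, against 2.24% of all genes, while Axin2 had a slope of 0.09. In the relay neuron list Cacna1g, Hcn3 and Hcn4, 3 of 17 genes, were, with slopes of 0.25, 0.21 and 0.26. For habenula, cortex, hypothalamus and choroid plexus the number was 0 in each, with median slopes of 0.34, 0.06, -0.39 and 0.06. The 15 oligodendrocyte genes all had slopes above 0 (median 0.23), against 9983 of all 17235 genes. Of these 15, 1, Ermn, was under 0.05 without adjustment, against 2.24% of all genes. Of the striatal interneuron genes, Lhx8, a factor of cholinergic neurons, had a slope of 0.60 (unadjusted p = 0.0052, adjusted p over 0.99, limma), while its mean was lower in the rich than in the poor libraries (6.94 against 9.95 FPKM).

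**Figure D4:**
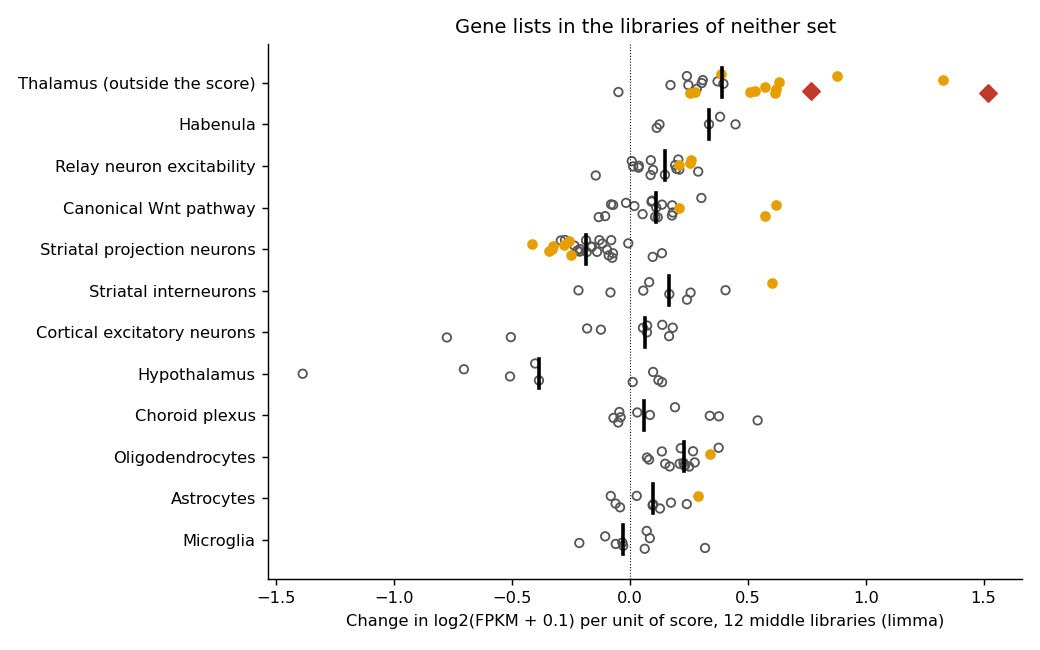
Change in log2(FPKM + 0.1) per unit of score in the 12 middle libraries (limma), one point per gene, with a bar at each list's median. Red diamonds mark an adjusted p under 0.05 (Shox2 and Ntng1), orange points an unadjusted p under 0.05, and open circles the rest. The thalamus list centres on 0.39 and the striatal projection neuron list on -0.18.

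Of the 322 genes that were higher in all rich libraries, 319 could be fitted in the middle libraries. A slope above 0 was found in 296 of them, against 9983 of all 17235 genes. Of the 77 lower genes all were fitted and 62 had a slope below 0, against 7252 of all 17235 genes. These shares describe how often the direction was kept, since genes within a library are not independent of each other.

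The score was not spread evenly over the study's groups. It was 4.73 ± 0.625 (SD, n = 4) in F1 PNO, 2.72 ± 1.61 (SD, n = 4) in F1 SAL and 2.85 ± 1.47 (SD, n = 4) in F1 IUO. In F2 it was 3.40 ± 1.10 (SD, n = 4) in PNO, 2.91 ± 1.83 (SD, n = 4) in SAL and 3.14 ± 1.43 (SD, n = 4) in IUO. All 4 F1 PNO libraries were above 4, while both SAL groups held libraries from both ends of the order. As the score chose the sets, these levels were not tested.

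**Figure D5:**
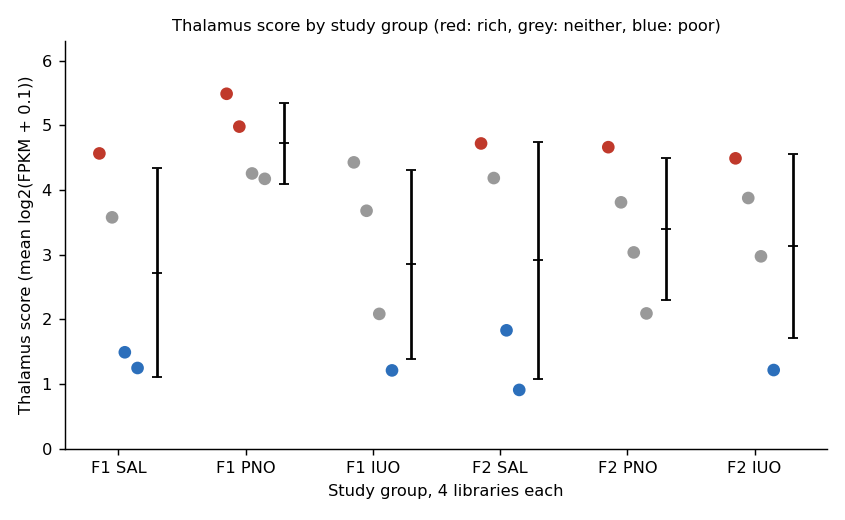
Thalamus score, the mean log2(FPKM + 0.1) of the 4 score genes, for the 4 libraries of each study group, with the group mean and SD beside them, rich libraries in red, middle in grey and poor in blue. F1 PNO has a mean of 4.73 and no poor library, and F1 SAL a mean of 2.72 with 1 rich and 2 poor libraries.

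The study's comparisons were then read for the thalamic and striatal genes. A gene passed with an unadjusted p under 0.05 in limma and at least a 2-fold ratio of the group means of FPKM, and counts over all genes here include the 4 of the score. The comparisons share groups with each other, so their values are given side by side and none is support for another. In F1 PNO against F1 SAL, where the mean score differed by 2.004, 325 of 17494 genes passed (1.86%), of which 147 (0.84%) were higher and 178 (1.02%) lower in PNO. The adjusted p of limma was under 0.05 for 0 genes and the unadjusted p for 2438. Of the 22 thalamic genes 6 passed and were higher in PNO, against 0.84% of all genes, namely Shox2, Gbx2, Ntng1, Lef1, Rgs16 and Ptger3. Ntng1 was at 20.4 FPKM in the mean of F1 PNO and 8.39 FPKM in the mean of F1 SAL, with a log2 difference of 1.52 (SE 0.496, adjusted p = 0.263, limma). The median over the thalamic list was 0.89. Of the 28 striatal genes 1 passed, against 1.02% of all genes, namely Sh3rf2, a low gene at 0.23 FPKM in PNO and 0.86 FPKM in SAL. The striatal median was -0.43, and 27 of the 28 were lower in PNO. Of the 28, 6 had an unadjusted p under 0.05, against 2438 of all 17494 genes. Of 6 habenular genes 3 passed and were higher in PNO, against 0.84% of all genes, with a median of 1.22. The cortical genes were higher in the mean of PNO in 10 of 10 cases, with a median of 1.21 and 0 that passed. Their mean log2 level was 2.89 to 3.32 in F1 PNO. It was 1.57 in F1 SAL 2 and 0.11 in F1 SAL 3, but 3.09 in F1 SAL 1 and 3.72 in F1 SAL 4. The 4 blood genes had a median of 1.35. Of 9 hypothalamic genes 3 passed and were lower in PNO, against 1.02% of all genes, with a median of -0.20. Their part in the thalamic and striatal values was not tested.

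With the score as a covariate in the same fit, 209 genes (1.19%) passed, of which 72 had passed without it. Ntng1 then differed by 0.11, Gbx2 by 0.05, Lef1 by 0.23, Rgs16 by -0.01 and Shox2 by -0.36. The medians were -0.12 over the thalamic, 0.04 over the striatal, 0.40 over the habenular, 0.75 over the cortical and 2.71 over the blood list. Of the thalamic genes 1 passed with the covariate, Tnnt1 (1.72, and 0.89 without it), and of the striatal genes 1, Sh3rf2 (-1.34). The covariate is made of thalamic genes, so a smaller difference for genes that follow it, such as Ntng1 and Shox2, was largely fixed beforehand. The score also differed between the groups. Thalamic content and exposure therefore cannot be told apart by this fit, here or in F1 IUO against F1 PNO.

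In F1 IUO against F1 PNO the mean score differed by -1.87, and 510 of 17306 genes passed (2.95%), of which 259 (1.5%) were lower in IUO. An adjusted p under 0.05 was reached by 23 genes. Of the 22 thalamic genes 7 passed and were lower in IUO, against 1.5% of all genes, namely Gbx2, Ntng1, Lef1, Rgs16, Slitrk6, Synpo2 and Ptpn3. Ntng1 was at 7.77 FPKM in the mean of F1 IUO and 20.4 FPKM in the mean of F1 PNO. The median over the thalamic list was -0.73, and 0.07 with the covariate. The striatal list had a median of 0.60, and 0.28 with the covariate. Of its 28 genes Sh3rf2 alone passed and was higher in IUO, against 1.45% of all genes, and 2 passed with the covariate, against 4.22%. An unadjusted p under 0.05 was reached by 17 of the 28, against 2857 of all 17306 genes, and 26 of the 28 were higher in IUO. The precursors Pdyn (46.6 FPKM in IUO, 24.4 in PNO) and Penk (263 and 171 FPKM) were under 2-fold and did not pass. Their log2 differences were 0.93 and 0.62, and 0.81 and 0.44 with the covariate. With the covariate 730 genes (4.22%) passed, of which 204 had passed without it, and 0 had an adjusted p under 0.05, where 2571 were under 0.05 unadjusted. Hypothalamic genes also moved in this comparison. Of 9 tested 6 passed and were higher in IUO, against 1.45% of all genes, with a median of 2.81 and of 3.13 with the covariate, and their part in the thalamic and striatal values was not tested.

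In the other 4 comparisons the mean score differed by -0.26 to 0.49, and 0 of the 22 thalamic and 0 of the striatal genes passed in each. With the score as a covariate 1 thalamic gene passed, Gbx2, in F2 PNO against F2 SAL (-1.65, and -0.98 without the covariate) and in F2 IUO against F2 PNO (1.45, and 1.19). The number of all genes that passed was 279 in F1 IUO against F1 SAL (1.61%), 373 in F2 PNO against F2 SAL (2.15%), 373 in F2 IUO against F2 SAL (2.18%) and 308 in F2 IUO against F2 PNO (1.8%). With the score as a covariate these were 299 (1.72%), 396 (2.28%), 423 (2.47%) and 294 (1.72%). The F2 IUO against F2 SAL count was 586 without F2 IUO 3. Both Y-linked genes tested passed in F1 IUO against F1 SAL, lower in IUO (median -3.16), against 1.61% of all genes. Both also passed in F2 IUO against F2 SAL, higher in IUO (median 3.34), against 2.18% of all genes. In F2 IUO against F2 PNO 1 of 2 passed and was higher in IUO, against 1.8%, and in F2 PNO against F2 SAL 0 did. The part of sex in these counts was not tested. The thalamic medians lay between -0.26 and 0.02 without and between -0.26 and -0.06 with the covariate. In F2 IUO against F2 SAL, where the mean of 27 of the 28 striatal genes was lower in IUO, the striatal median was -0.38, and 4 of 10 cortical genes passed and were higher, against 2.18% of all genes in either direction, with a median of 0.58.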

How the data were processed

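RNA-Seq of P14 NAc from 24 pups was analysed. For each library, the authors deposited FPKM per gene, evaluated by StringTie after transcriptomes were merged with a script of the sequencing company. The submitters' processing notes also name HISAT2, SAMtools and edgeR, and the genome build is not given in the sources used here. No counts were used, so edgeR was not run, and a depth that differs between libraries cannot be weighed.

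Values were put on the log2(FPKM + 0.1) scale without rescaling. Rich and poor libraries were compared as means, SDs and overlap of 6 and 6 values. The 12 middle libraries and the study's comparisons were fitted with limma 3.58.1 (lmFit, eBayes with trend) in R 4.3.3, two-sided, with Benjamini-Hochberg adjustment over all genes tested, without the 4 of the score in the middle libraries. For the comparisons, the 2-fold limit follows the study's gene lists, while its methods name a count model and a lower fold limit for candidates taken to RT-PCR. Genes needed 0.1 FPKM in 6 of 12 or 4 of 8 libraries. P-values measure the spread between pups, which may share litters. With a covariate, the 2-fold criterion used the fitted difference. Python 3.11.15, pandas 2.3.3, numpy 2.4.6 and matplotlib 3.10.9 handled tables and figures. The procedure was tested on simulated data.

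Named genes were the marker lists, the 15 largest differences in each direction without overlap (mean of at least 1 FPKM, no clone identifier), the 10 highest and 10 lowest r, and up to 10 genes called in the middle libraries. The members and lists were chosen with earlier results of these data known. Alternatives were a pseudocount of 1, other filters, upper-quartile rescaling, factors, a replicate block, and leaving out each library.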

Additional observations from a re-analysis of the deposited data

Results flagged for a closer look

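Of 50 groups of 4 or 6 libraries examined for 1 library that stands apart from the rest by Dixon's criterion, 4 did, where chance alone gives about 2.5. In parentheses is the distance to the next library divided by the range of the set.

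Within the thalamus-poor set, F2 IUO 4 was lowest in the mean log2 level of the 22 thalamic genes, at 0.72 against 1.18 to 1.44 in the other 5 libraries (0.647). F1 SAL 3 was lowest in the mean log2 level of the cortical genes, at 0.11 against 3.04 to 3.72 (0.812). The same library had the highest Drd2, at 69.2 FPKM against 40.0 to 48.7 FPKM (0.701), and the highest Rxrg, at 54.4 FPKM against 27.1 to 34.2 FPKM (0.740).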

How the results depend on the processing

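The number of reads behind each FPKM is unknown, which limits what can be said of genes near 0. Genes rising with the score in the middle libraries numbered 3, 0 with treatment and generation as factors, 0 with same-numbered libraries as a replicate block, 0 with the 10 highest-scoring middle libraries alone, and from 0 to 4 with 1 library left out. Falling genes stayed at 0 in all of these. With all 24 libraries and the study groups as a factor, which includes the libraries of both sets, 406 rose and 148 fell. Over 21 alternatives Shox2 had an adjusted p under 0.05 in 16, Ntng1 in 10 and Cpne7 in 5. Without overlap between the sets there were 540 higher and 216 lower genes with the 4 rich libraries low in Ttr, and 341 to 487 higher and 84 to 204 lower with 1 library left out, as fewer libraries overlap less. For genes past the 2-fold rule, the score as a covariate moved F1 PNO against SAL to 209 genes. Requiring 1 FPKM in 4 libraries gave, in F1, 112 (PNO and SAL), 83 (IUO and SAL) and 237 (IUO and PNO) genes and, in F2, 151, 136 and 119 genes. Without a filter there were 465 for IUO and SAL in F1, and 569 for IUO and SAL and 521 for IUO and PNO in F2. With 1 library left out, the 6 counts in that first order ran from 266 to 487, 227 to 389, 370 to 602, 301 to 513, 258 to 586 and 230 to 437. The labels give same-numbered libraries no link beyond the number. The correlation of their deviations ran from -0.27 to 0.12, which cannot show whether they share a litter or a batch. The replicate block moved none of these 6 counts by over 1.5 times (326 for F1 PNO against SAL), and genes of F1 IUO against PNO at an adjusted p under 0.05 fell from 23 to 2. Directions turned for Slc17a7 in the middle libraries (-0.083 with upper-quartile rescaling, -0.011 without F1 PNO 3, -0.15 without F2 PNO 1, and up to 0.37 with another library left out), and for Slc17a7 (-0.40, and up to 0.82 with another left out) and the cortical median (-0.24, and up to 0.59) between the sets without F1 SAL 3. They also turned with the score as a covariate for Shox2 (-0.36) and Rgs16 (-0.0055) in F1 PNO against SAL and for Shox2 (0.74) in F1 IUO against PNO. The cause of these moves was not tested.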
